A study of Danio rerio with 8 samples.

Results

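The cytochrome P450 genes of families 2, 3 and 4 were followed in zebrafish (*Danio rerio*) liver after exposure to river water. Members were all genes whose symbol, found through the RefSeq accession of the array probe, began with cyp2, cyp3 or cyp4 followed directly by a letter, and that were well above background on at least 1 array. RefSeq listed 49 such genes, 36 of them had a matched probe, and 34 passed: 26 of family 2, 4 of family 3 and 4 of family 4, out of 11918 genes that passed the same filter in the whole series. All 34 were well above background on all 8 arrays. The 2 genes left outside by the filter, *cyp2k6* and *cyp2k18*, were not above background on any array, and the other 13, *cyp2r1* among them, had no matched probe.

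Livers of male wild-type fish aged 3 months were measured on 1-colour Agilent arrays after 96 h in filtered water from 7 sites or in clean water, and the source names of D and X give 97 h. The H groups were exposed to mainstream Hun River water (H1, near the reservoir, then H2, H3, H4 and H5), D to water of the Dongzhou River, a tributary that receives petroleum and chemical discharges, and X to water of the Xi River, a tributary that receives pharmaceutical and domestic discharges. The control fish were kept in aerated, carbon-filtered tap water. Each group was represented here by 1 array of RNA pooled from 5 fish of 1 tank, so no spread between fish, tanks or arrays could be measured and no test was made. Arrays of H1, H2, D and control shared 1 slide, and H3, H4, H5 and X shared the other.

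Cytochromes P450 are haem enzymes of the endoplasmic reticulum that take electrons from P450 reductase and cytochrome b5 to add oxygen to their substrates. Enzymes of families 2 and 3 oxidize drugs, steroids, fatty acids and pollutants in the liver, and family 4 enzymes mainly hydroxylate the ends of fatty acids. In vertebrate liver several of these genes are induced through the pregnane X receptor, which senses foreign compounds and bile acids. Fish have enlarged family 2 by repeated gene duplication, so that many members lie beside close relatives, for example the CYP2AA genes.

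Values are log2 signals after quantile normalization, averaged over the probes of a gene, and differences are site minus control. A member is said below to rise or fall where it differed from control by at least 2 fold, which is 1 on the log2 scale. On this measure 23 of the 34 members moved at no site and 11 moved at 1 or more (32.4%, against 36.0% of the 8702 genes that were well above background on all 8 arrays). Of the 238 differences between a member and its control value, 25 were falls and 8 were rises. Of all genes tested at a site, between 4.60% (H5) and 12.2% (D) fell and between 3.02% (H2) and 12.0% (D) rose. *cyp2aa4* and *cyp2aa8* gave 12 of the 25 falls. All 8 rises belonged to *cyp2aa6*, *cyp2u1* and *cyp2x9*, each read by 1 probe. The median member spanned 1.09 log2 units over the 8 arrays, against 1.12 for those genes. The 7 comparisons share 1 control array, so a member with an unusual control value would appear to move at every site.

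**Figure D1:**
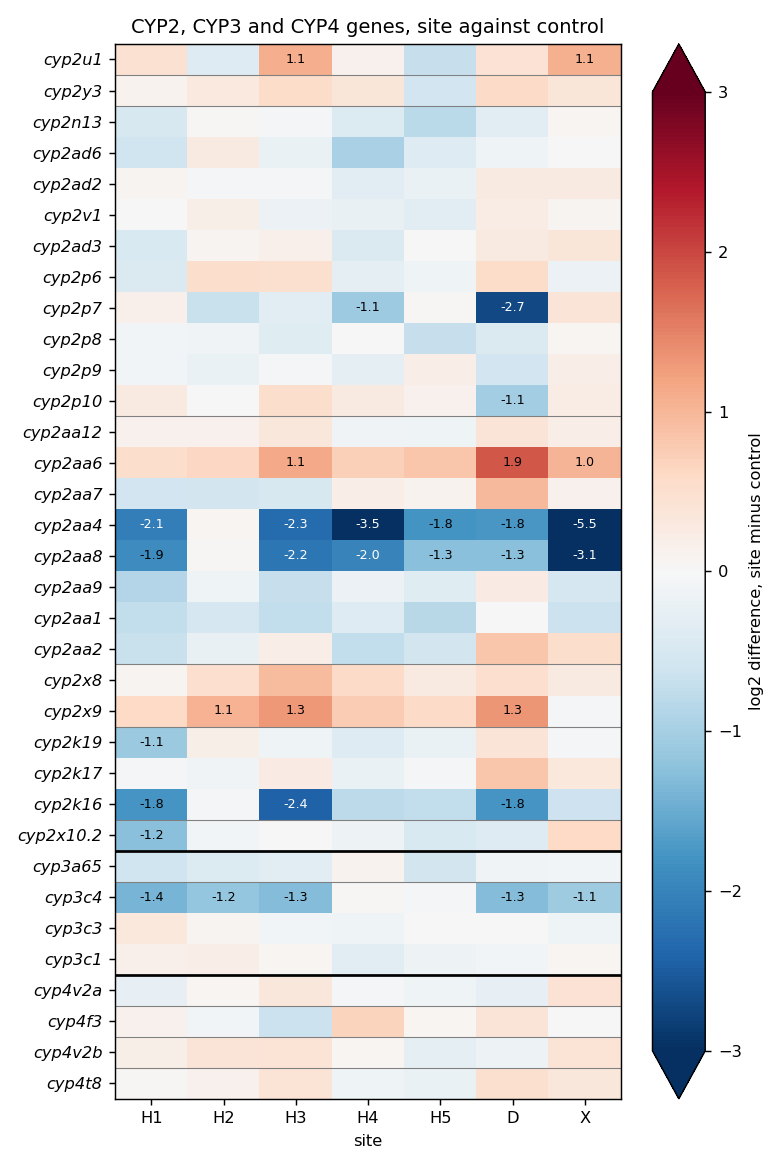
Log2 difference, site minus control, of the 34 members (rows, by family and then in chromosomal order, with thin lines between runs of neighbours) at the 7 sites (columns). Colours end at 3 in both directions, differences of at least 1 are printed, and 3 cells lie past the darkest blue, *cyp2aa4* at X (-5.47, with 1 of its probes dim there) and H4 (-3.51) and *cyp2aa8* at X (-3.15).

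By site, the members moved about as often as all genes tested. Their share was above that of the 8702 genes that, like them, were well above background on all 8 arrays, by a few members at most. Over the 7 sites together, the share that moved at 1 or more sites was lower in the members (32.4% against 36.0%). At H1, 0 members rose and 6 fell (17.6%, against 17.7% of 10613 genes tested and 11.9% of the 8702 genes). At H2, 1 rose and 1 fell (5.88%, against 7.88% of 10360 genes and 3.87% of the 8702). At H3, 3 rose and 4 fell (20.6%, against 21.5% of 10599 genes and 14.4% of the 8702). Each of these shares lay at or slightly below that of all genes tested, a set that holds many dimmer genes.

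The other sites had the same order. At H4, 0 members rose and 3 fell (8.82%, against 14.4% of 10805 genes tested and 7.57% of the 8702 genes), and at H5, 0 rose and 2 fell (5.88%, against 9.84% of 10568 genes and 4.70% of the 8702). At D, 2 rose and 6 fell (23.5%, against 24.2% of 11397 genes and 16.9% of the 8702). At X, 2 rose and 3 fell (14.7%, against 16.0% of 10750 genes and 9.57% of the 8702). With 34 members, 1 member is 2.94% of them.

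At 3 fold, which the methods of the study used for D, 3 members remained at H1 (9.20% of all genes tested), 0 at H2 (3.11%), 3 at H3 (11.5%), 2 at H4 (6.90%), 1 at H5 (4.23%), 4 at D (10.9%) and 2 at X (8.33%). The D array was the dimmest (75th percentile of the signal 922.3, against 1801 at H4, the brightest). Scaling by that percentile gave 10 members past 2 fold at D, 5 rises and 5 falls (27.4% of all genes tested). It also moved the median of all genes at D to 0.33, against 0.13. At H2 it gave 0 rises and 1 fall (8.23% of all genes tested). A set of 6 members moved at 3 or more sites (17.6%, against 8.81% of the 8702 genes), namely *cyp2aa4*, *cyp2aa8*, *cyp2aa6*, *cyp2k16*, *cyp2x9* and *cyp3c4*.

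By direction, falls were listed for 10.3% of all genes at H1, 4.86% at H2, 11.9% at H3, 5.74% at H4, 4.60% at H5, 12.2% at D and 9.80% at X. Rises were listed for 7.42%, 3.02%, 9.60%, 8.66%, 5.24%, 12.0% and 6.21% of all genes at the same sites in the same order. The median difference of the members stayed near that of all genes, from -0.20 at H5 (all genes 0.00) to 0.12 at D (all genes 0.13).

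**Figure D2:**
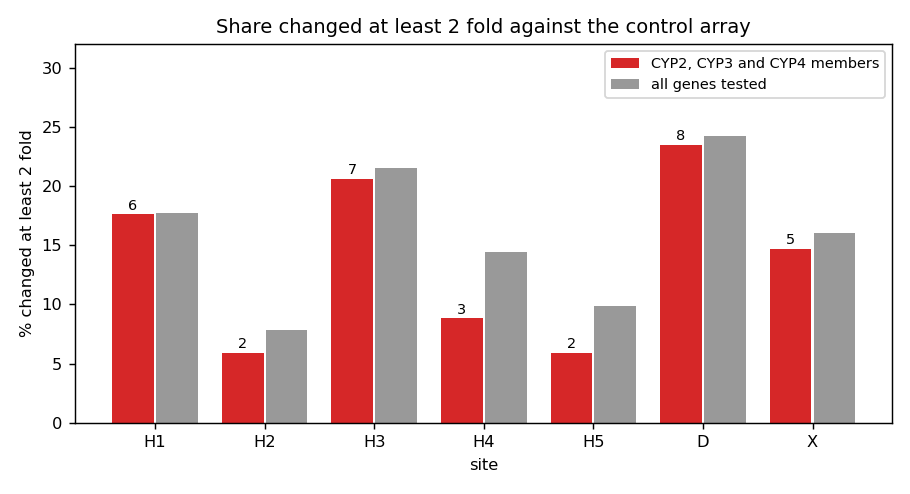
Share of genes, in %, that differed from control by at least 2 fold at each site, for the 34 members (left bars, with the number of members above each) and all genes tested (right bars). The member share ran from 5.88% at H2 and H5 to 23.5% at D and was below that of all genes tested at each site.

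The largest falls were those of *cyp2aa4*, a CYP2AA gene. Its log2 signal was 9.64 at H1, 11.78 at H2, 9.43 at H3, 8.21 at H4, 9.92 at H5, 9.97 at D and 6.26 at X, against 11.72 in control. H2 and control formed a high pair, X lay far below all other arrays, and the other 5 sites lay between them. It fell 4.23 fold at H1, 4.91 fold at H3, 11.4 fold at H4, 3.36 fold at D and 3.48 fold at H5, and it fell at X as well. At H4 its difference of -3.51 was the 23rd lowest of 10805 genes.

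A pair of probes read *cyp2aa4* and differed by at most 0.80 log2 units at the sites other than X. At X the first probe was not well above background, which made it at least 42.6-fold lower than in control, where that bound takes the dimmest signal well above background on the X array as the site's level. The second probe, well above background on all 8 arrays, had a difference of -3.59 at X. With the dim value raised to that floor, the difference of the gene at X was -4.50, against -5.47 as measured, so the size of the fall at X depends on the probe.

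The next member along the chromosome, *cyp2aa8*, had a log2 signal of 10.04 at H1, 11.97 at H2, 9.77 at H3, 9.93 at H4, 10.67 at H5, 10.67 at D and 8.78 at X, against 11.93 in control, from 1 probe. H2 and control were again the high pair and X the lowest array. The fall was 3.71 fold at H1, 4.49 fold at H3, 4.01 fold at H4, 2.40 fold at H5, 2.40 fold at D and 8.89 fold at X. Of all members *cyp2aa8* had the profile most like that of *cyp2aa4* (Pearson's r 0.95 over 8 arrays, as a description). Whether a probe of either gene also binds RNA of the other was not tested.

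The falls of both genes occurred on both slides. H1 and D shared the slide of the control and fell on it, with differences of -2.08 and -1.75 for *cyp2aa4* and -1.89 and -1.26 for *cyp2aa8*. With each probe centred on its median over the 4 arrays of a slide, *cyp2aa4* was at -1.48 at H4 and -3.44 at X (dim probe included), but at -0.27 at H3 and 0.22 at H5. Centred values of *cyp2aa8* were -0.71 at H3, -0.55 at H4, 0.19 at H5 and -1.70 at X. For the sites of the other slide, slide and site cannot be told apart. That slide holds no control array, so centring also takes away a fall that its sites share.

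*cyp2aa4* and *cyp2aa8* were consecutive members, with 1 other gene between them, in a run of 11 genes of the families, and 8 of the 11 were measured. The next member in line, *cyp2aa9*, had 2 probes that disagreed. Its brighter probe had differences of -1.40 at H1, 0.00 at H2, -1.46 at H3, -0.95 at H4, -1.12 at H5, -0.64 at D and -1.84 at X, while the other was well above background on 3 of 8 arrays and ran from -0.37 at H1 to 1.12 at D. Their mean reached 2 fold at no site. *cyp2aa1* and *cyp2aa2*, which follow, stayed within 2 fold of control as gene means, between -0.84 and 0.83. For *cyp2aa2* the 2 probes disagreed, at 1.08 and 0.57 at D and 1.04 and -0.01 at X.

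**Figure D3:**
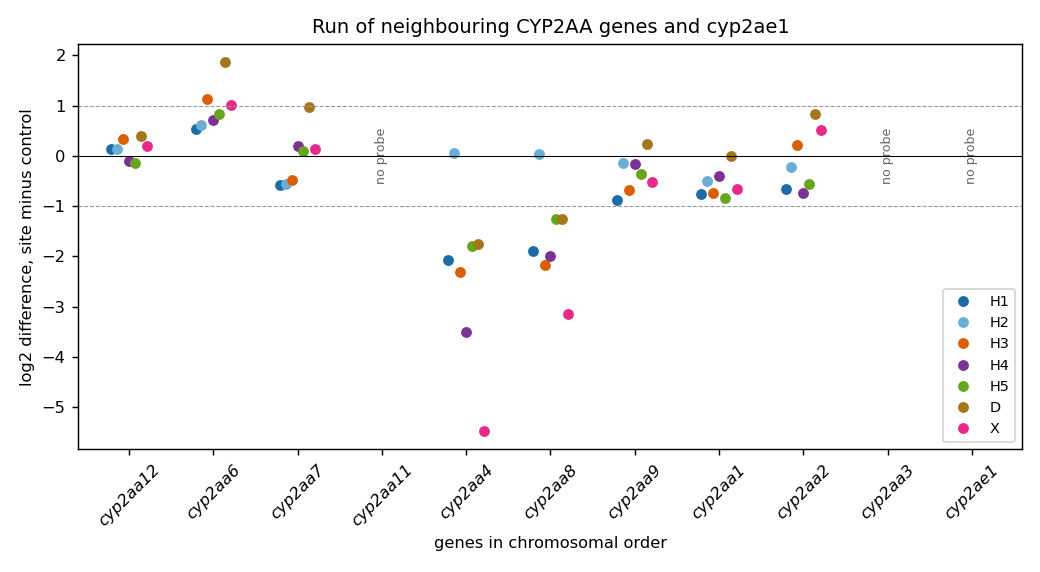
Log2 difference, site minus control, for each gene of the run of CYP2AA genes in chromosomal order (horizontal axis), with 1 coloured point per site and dashed lines at 2 fold. The points of *cyp2aa4* and *cyp2aa8* lie below the lower line at 6 sites and near 0 at H2, those of *cyp2aa6* lie above 0 at all 7, and *cyp2aa11*, *cyp2aa3* and *cyp2ae1* had no matched probe.

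On the other side of the same run *cyp2aa6* was raised. Its log2 signal was 11.77 at H1, 11.86 at H2, 12.39 at H3, 11.97 at H4, 12.09 at H5, 13.10 at D and 12.25 at X, against 11.24 in control. These values came from 1 probe. All 7 sites lay above the control array, D highest. The rise reached 2.21 fold at H3, 3.62 fold at D and 2.01 fold at X. Against the median of the other 7 arrays the gene was at 0.42 at H3, 1.13 at D and 0.28 at X. Slide-centred differences were 0.79 at H3 and 0.65 at X, both within 2 fold. Centring cannot change the difference at D, which shares the control's slide. The gene first in the run, *cyp2aa12*, was among the 4 steadiest members, with 12.95 at H1, 12.96 at H2, 13.15 at H3, 12.72 at H4, 12.68 at H5, 13.21 at D and 13.01 at X, against 12.82 in control. Single probes of it ran from -0.79 to 0.38 at H4. *cyp2aa7* came close to 2 fold at D (0.98).

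The CYP2X pair *cyp2x8* and *cyp2x9* lay side by side as well. *cyp2x9* had a log2 signal of 14.02 at H1, 14.48 at H2, 14.74 at H3, 14.18 at H4, 14.00 at H5, 14.75 at D and 13.38 at X, against 13.43 in control. On its 1 probe it rose 2.07 fold at H2, 2.48 fold at H3 and 2.50 fold at D, and X lay at the control level. The rise at H2 was just past the threshold, with a difference of 1.05 that became 0.99 after scaling by the 75th percentile. *cyp2x8* ran from 0.09 at H1 to 0.95 at H3, and *cyp2x10.2*, which lies elsewhere, fell at H1 alone (-1.25) and was at 0.59 at X.

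**Figure D4:**
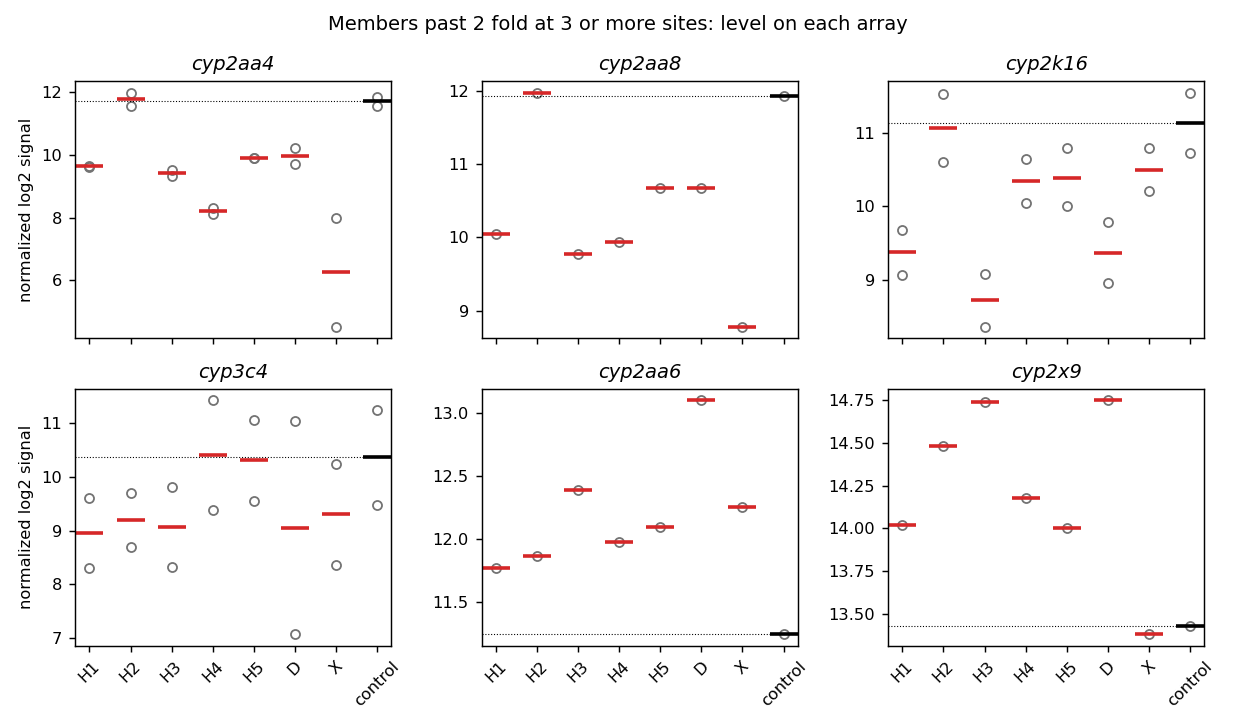
Normalized log2 signal on each array of the 6 members that moved at 3 or more sites (bars, the gene value, red for sites and black for control; open circles, single probes; dotted line, the control level). *cyp2aa4* and *cyp2aa8* are highest on the H2 and control arrays, at 11.78 and 11.72 for *cyp2aa4*, and *cyp2aa6* is lowest on the control array, at 11.24.

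CYP2K is a fish subfamily, and in rainbow trout a CYP2K enzyme hydroxylates lauric acid and activates aflatoxin. *cyp2k16* had a log2 signal of 9.38 at H1, 11.07 at H2, 8.72 at H3, 10.35 at H4, 10.39 at H5, 9.37 at D and 10.50 at X, against 11.14 in control. The control array was the highest, H2 lay beside it, and H1, H3 and D were the 3 lowest. The falls were 3.38 fold at H1, 5.34 fold at H3 and 3.40 fold at D, and both probes gave them. Of its relatives, *cyp2k19* fell at H1 alone (-1.11) and *cyp2k17* was within 2 fold at every site (0.84 at D).

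Markers of several other organs were low at H1, H3, D and X. *cyp2k16* was at -1.76, -2.42, -1.77 and -0.63 at these sites, and at -0.07 at H2, -0.79 at H4 and -0.74 at H5. Of 18 enterocyte genes measured, 16 fell at H1, 15 at H3, 14 at D and 16 at X, with a median difference of -2.60 at H1, -6.31 at H3, -6.91 at D and -6.18 at X. Numbers were smaller at H2 (5, median -0.77), H4 (3, -0.20) and H5 (3, -0.21). *fabp2*, the intestinal fatty acid binding protein, was at 9.01 at D, against 16.01 in control.

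Of 16 exocrine pancreas genes, 16 fell at H1, 9 at H2, 16 at H3, 0 at H4, 4 at H5, 14 at D and 16 at X. Most fast muscle and islet genes fell at H1, H3, D and X, and 6 of 10 fast muscle genes fell at H2 as well. Of 6 kidney genes, 3 fell at H1, H3 and X and 4 at D. Another kidney gene, *slc12a3*, was at 0.46 at H1, 1.01 at H3, 0.99 at D and 0.83 at X. Leukocyte genes were split at H1 (5 of 9 fell and 2 rose) and fell at H3 (6 of 8). Testis genes were high at H3, H4 and H5 (8, 9 and 8 of 10), and heart genes at H5 (7 of 8). All 13 hepatocyte genes stayed within 2 fold at every site, with *fabp10a*, the liver fatty acid binding protein, between 17.03 and 17.67. They are bright genes, and quantile normalization takes away a shift that the brightest genes share. The summed signal of the enterocyte genes ran from 92879 at D to 576626 at H4, against 605720 in control. Such a sum weighs bright genes most, and the brightest at D was *apoa4b.1* (15.88, against 16.68 in control). In a pooled organ sample, fewer cells of a type and less RNA per cell cannot be told apart, and the part of these other organs in the P450 values was not tested.

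At H4 the enterocyte and exocrine pancreas lists changed little and the testis list changed most (median 4.31). *cyp2aa4* was at -3.51 and *cyp2aa8* at -2.00 there, with 18 of 18 enterocyte genes well above background and medians of -0.20 for enterocyte and -0.22 for exocrine pancreas genes. At H5 *cyp2aa4* was at -1.80, with medians of -0.21 for enterocyte, 2.60 for testis and 6.20 for heart genes. Both sites are on the slide without the control, and slide-centred *cyp2aa4* was at -1.48 at H4 and 0.22 at H5. Any part of the other organs in these P450 values was not tested.

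**Figure D5:**
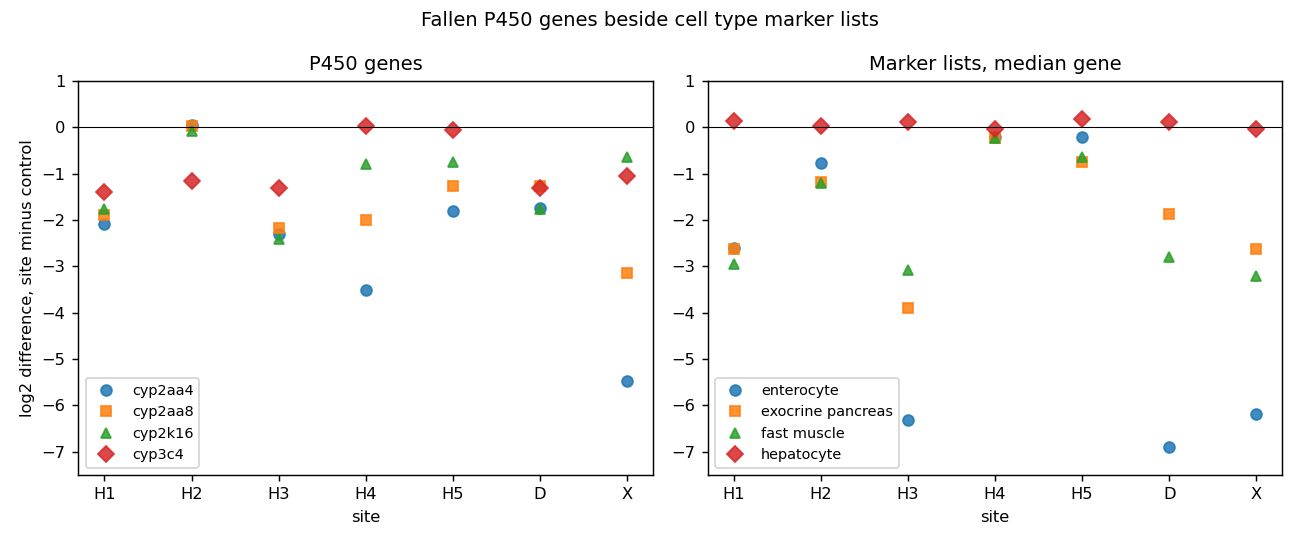
Log2 difference, site minus control, of 4 P450 genes that fell (left) and the median of 4 marker lists (right) at the 7 sites. At H4 the enterocyte median is -0.20 and *cyp2aa4* is at -3.51. At H1, H2, H3, D and X, where *cyp3c4* fell, the enterocyte median is -2.60, -0.77, -6.31, -6.91 and -6.18. A link between the left and right panels was not tested.

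*cyp3c4* was the only member of families 3 and 4 that moved, out of 8 (36.0% of the 8702 genes moved at 1 or more sites). Its log2 signal was 8.96 at H1, 9.20 at H2, 9.07 at H3, 10.41 at H4, 10.31 at H5, 9.06 at D and 9.31 at X, against 10.37 in control. As gene means, H4, H5 and control were the highest arrays and the other 5 sites lay lower. On the brighter of its 2 probes D read 11.05, beside 11.07 at H5. The falls ranged from 2.09 fold at X to 2.65 fold at H1. With normexp background correction 3 of the 5 came within 2 fold, at H2 (-0.92), D (-0.87) and X (-0.79), and against the median of the other arrays none of the 5 reached it (-0.34 to 0.10). The 5 low sites also had lower enterocyte and exocrine pancreas medians than H4 and H5, and a link was not tested.

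The probes of *cyp3c4* disagreed at D, at -0.20 and -2.41. At the other 4 low sites both were below control, the brighter one at -1.02 or lower and the dimmer one between -0.78 and -1.17. Its neighbours *cyp3c3* and *cyp3c1* were among the 4 steadiest members. *cyp3c3* had 12.37 at H1, 12.12 at H2, 11.95 at H3, 11.91 at H4, 12.07 at H5, 12.05 at D and 11.91 at X, against 12.05 in control. *cyp3c1* had 12.76 at H1, 12.82 at H2, 12.68 at H3, 12.27 at H4, 12.46 at H5, 12.53 at D and 12.68 at X, against 12.62 in control. In both the control array lay inside the range of the sites. Their single probes were less steady than the means, at 0.86, 0.06 and 0.04 for *cyp3c3* at H1 and -0.11, 0.80 and -0.51 for *cyp3c1* at H3.

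*cyp3a65*, the zebrafish relative of the human drug-metabolizing enzyme CYP3A4, is known to be inducible through the pregnane X receptor. Its log2 signal was 14.72 at H1, 14.90 at H2, 14.98 at H3, 15.43 at H4, 14.76 at H5, 15.20 at D and 15.22 at X, against 15.32 in control. Control lay near the top of this range of 0.70 log2 units, H4 alone was above it, and no site reached 2 fold. With 75th percentile scaling or the authors' log2 table the sign turned at 3 sites, to -0.26 at H4, 0.41 at D and 0.14 at X. Its 2 probes had the same sign at every site.

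None of the 4 members of family 4 moved (36.0% of the 8702 genes moved at 1 or more sites). Their largest difference was 0.67 in either direction, against 0.59 in family 3 other than *cyp3c4*. *cyp4v2a* and *cyp4v2b* are relatives of human CYP4V2, a fatty acid hydroxylase of the eye and other tissues. *cyp4v2a* ran from 13.80 at H1 and D to 14.48 at X (control 14.04) and *cyp4v2b* from 12.54 at H5 to 13.23 at H3 (control 12.82). *cyp4f3* was at 0.67 at H4 and at -0.64 at H3, where its 2 probes used were at -0.08 and -1.19. The gene *cyp4t8* stayed between -0.20 and 0.47. *cyp4t8* had the most similar profile to *cyp2aa12* (Pearson's r 0.97 over 8 arrays, both spanning under 1 log2 unit), without being a neighbour of it.

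The CYP2J-like genes of fish, among them the CYP2N, CYP2P, CYP2AD and CYP2V genes, lay together in a second run, with 10 of 11 measured. In killifish, CYP2N and CYP2P enzymes oxidize arachidonic acid. Only *cyp2p7* and *cyp2p10* moved (36.0% of the 8702 genes moved at 1 or more sites). *cyp2p7* had a log2 signal of 8.41 at H1, 7.60 at H2, 7.93 at H3, 7.16 at H4, 8.31 at H5, 5.55 at D and 8.65 at X, against 8.26 in control. D lay below all other arrays and H4 next, and the falls were 6.55 fold at D and 2.15 fold at H4.

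At D the first *cyp2p7* probe was not well above background (at least 3.21-fold lower than in control), and the second was at -2.96. The difference of the gene at D was -2.32 with dim values raised to the floor, -2.02 with 75th percentile scaling and -1.38 with normexp background correction. At H4 the first probe was again not well above background, and the difference was -0.88 with the floor and -0.72 with normexp, both within 2 fold. *cyp2p10* fell at D alone, 2.07 fold (8.48 at D, against 9.53 in control), a difference of -1.05 that became -0.89 with 75th percentile scaling or the authors' log2 table and -0.79 with normexp, within 2 fold. *cyp2p9*, which lies between *cyp2p7* and *cyp2p10*, was at -0.57 at D, from probes at -0.14 and -1.01. *cyp2ad2*, *cyp2ad3*, *cyp2ad6*, *cyp2n13*, *cyp2p6*, *cyp2p8* and *cyp2v1* were within 2 fold at every site, with *cyp2ad6* at -0.97 at H4 the nearest to it. *cyp2v1*, another of the steadiest members, had 10.68 at H1, 10.87 at H2, 10.52 at H3, 10.46 at H4, 10.36 at H5, 10.92 at D and 10.78 at X, against 10.69 in control. Its 2 probes went opposite ways at D (1.00 and -0.54), and the steady mean hides that.

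*cyp2u1*, whose product in mammals hydroxylates long-chain fatty acids, has no neighbour of these families. Its log2 signal was 10.61 at H1, 9.79 at H2, 11.27 at H3, 10.29 at H4, 9.48 at H5, 10.61 at D and 11.23 at X, against 10.17 in control. H3 and X were the high pair, 2.14 and 2.10 fold above control on 1 probe, and H5 was the lowest array. Both high arrays were on the slide without the control, and slide-centred differences were 0.73 at H3 and 0.70 at X. *cyp2y3* ran from 13.99 at H5 to 15.15 at D (control 14.58) and moved at no site.

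Members of 1 subfamily ranged widely in how alike their profiles were. Over 8 arrays the median Pearson's r was 0.28 for the 51 pairs within a subfamily and 0.12 for the 510 pairs between subfamilies, and pairs within a subfamily ran from -0.71 to 0.95. These values describe 8 arrays that share 1 normalization. After *cyp2aa4* and *cyp2aa8*, the closest pair within a subfamily was *cyp2p7* and *cyp2p9* (r 0.92), of which *cyp2p7* fell at D (-2.71) and *cyp2p9* stayed within 2 fold there (-0.57 as the mean of its probes).

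Genes that serve or control these enzymes were listed as well. Of 21 genes for electron donors and haem supply, between 0 (H4, all genes 14.4%) and 6 (D, all genes 24.2%) moved at a site. *pora*, the reductase that passes electrons to P450 enzymes, was at -1.21 at D and 1.16 at H5 on 1 probe, and *cyb5a*, cytochrome b5, fell at D alone (13.50, against 14.84 in control). *cyb5r2*, a cytochrome b5 reductase, fell at H1 (-2.11), H2 (-1.24), H3 (-3.01), D (-3.34) and X (-2.93).

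Of 31 receptors and liver factors above background somewhere, 0 of 29 tested moved at H5 (all genes 9.84%) and 10 of 30 at D (all genes 24.2%), the extremes. *nr1i2*, the pregnane X receptor, had a log2 signal of 9.13 at H1, 9.03 at H2, 9.33 at H3, 8.51 at H4, 8.39 at H5, 7.18 at D and 9.89 at X, against 8.62 in control. It was lowest at D (-1.44) and highest at X (1.27), where *cyp3a65* was at -0.11 and -0.09. *nr0b2a*, the small heterodimer partner that represses bile acid synthesis genes, fell at H1 (-3.02), H3 (-3.75), D (-2.69) and X (-3.33).

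Among other P450 genes, *cyp1a*, the classical target of the aryl hydrocarbon receptor, stayed between -0.54 at H4 and 0.66 at D. *cyp1c1* and *cyp1c2* rose at H4 (1.88 and 2.55) and were low at H1, H3 and D, and *cyp1d1* was at 1.25 at X and -1.11 at H5. *cyp7a1*, the rate-limiting enzyme of bile acid synthesis, fell at H1 (-2.10), H3 (-1.35), H4 (-2.20) and H5 (-1.29) but not at D (-0.22) or X (0.41). Of the P450 genes outside families 1 to 4, 5 of 21 tested moved at H1 (all genes 17.7%), 4 of 19 at H2 (7.88%), 4 of 21 at H3 (21.5%), 5 of 21 at H4 (14.4%), 4 of 22 at H5 (9.84%), 6 of 24 at D (24.2%) and 2 of 20 at X (16.0%). These counts include *cyp8b1.3* at every site, a gene well above background on 1 array only (control, 6.80). At D they also include *cyp17a2* and *cyp26c1*, each well above background on 1 array only.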

How the data were processed

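Each array was hybridised with liver RNA of 1 group, and the authors deposited Agilent Feature Extraction tables of spot intensity (version 10.7 in the submitters' notes, 11.5.1.1 in the file headers) and a log2 table. The deposited log2 values equalled the log2 signal minus an offset near the 75th percentile of each array, although the methods name quantile normalization. From the processed signal, log2 values were quantile normalized, repeated spots averaged, and outlier-marked probes left out. Probes well above background on at least 1 array were averaged per gene. Symbols came from RefSeq accessions (26094 of 43603 probes matched). Between 56.5% and 70.8% of spots were well above background on an array and 0 were saturated. The number of arrays, 1 per group, limits the precision, and the study's second arrays were not analysed here. D had no second array in the study, because 1 of its RNA samples did not pass the quality check.

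Genes well above background on the site or control array were compared at a threshold of 2 fold. Members described with all values were those past 2 fold at 3 or more sites, the largest rise and fall at each site, the 4 with the smallest range and *cyp3a65*; other members and list genes were named after their values were seen. The members, lists and alternatives were chosen with earlier results of these data known, and the comparison with genes well above background on all 8 arrays was added after the values were seen. Neighbours have at most 5 other genes between them in the RefSeq order, and a fold bound sets the bright mean against the lowest signal well above background. Normexp (offset 50, limma 3.58.1 in R 4.3.3) was an alternative. Other steps used Python 3.11.15 and were tested on simulated data.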

Additional observations from a re-analysis of the deposited data

How the results depend on the processing

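With 1 array per group no replicate could be left out. No paired analysis was possible because each group has only replicate 1. There were 30 differences past 2 fold among the members described in full. Keeping dim or marked probes, requiring a signal above background at site and control alike, and taking the median of probes could change none of them. The genes had at most 2 probes each, with none left out as dim or marked, and were well above background on every array. Of the 30, 29 kept direction and side of the threshold with 75th percentile scaling, the authors' log2 table or dim values raised to a floor. With normexp 26 did so, and with slide centring 21. Centring cannot change a difference at H1, H2 or D, which share the control's slide. Differences at H3, H4, H5 and X numbered 7, 3, 2 and 5, and of these 7 weakened and 2 reversed with centring. Against the median of the other 7 arrays, 9 of the 30 kept direction and side, since most sites are then set against other sites.

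Slide centring turned *cyp2aa4* (0.22) and *cyp2aa8* (0.19) above the reference at H5. Set against the other 7 arrays, *cyp2aa4* was at 0.28 at H5 and 0.33 at D, *cyp2aa8* at 0.63 at H5 and 0.63 at D, and *cyp3c4* at 0.10 at X. Members past 2 fold against the other arrays numbered 3 at H1 (all genes 11.6%), 1 at H3 (14.7%), 5 at D (22.1%) and 2 at X (10.7%). Slide centring gave 3 members at H3 (all genes 16.9%), 1 at H5 (8.01%) and 3 at X (14.5%). At H2, 75th percentile scaling, the authors' table and normexp each gave 1 (all genes 8.23%, 8.25% and 2.83%). At 3 fold, the threshold of the study's methods for D, 3 remained at H1, 0 at H2, 3 at H3, 1 at H5, 4 at D and 2 at X. The 75th percentile moved the median of all genes at D to 0.33, against 0.13, and at H4 to -0.12, against -0.01.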
